A study of Mus musculus with 12 samples.

Results

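The genes studied were those of the matrix metalloproteases (MMPs), the ADAMTS and ADAMTS-like proteins and the tissue inhibitors of metalloproteases (TIMPs) in cultured mouse astrocytes. Members were taken by name from the deposited table of counts, as every row named Mmp, Adamts or Adamtsl with its number, or *Timp1* to *Timp4*. The table held 38 such genes among 18903, namely 17 MMPs, 13 ADAMTS genes, 4 ADAMTS-like genes and 4 TIMPs. The rule used names alone and no measured value, but the families and the lists of partners were chosen with earlier results of these data known. Shares set against all genes are therefore descriptions. Other genes of these families were not analysed here.

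MMPs are zinc-dependent proteases that cut proteins of the extracellular matrix, and most are secreted as inactive precursors or held in the cell membrane. ADAMTS proteases carry thrombospondin repeats and cut proteoglycans, procollagens and other matrix proteins, while the ADAMTS-like proteins have the repeats but no protease domain. TIMPs bind the active site of these enzymes and block it, and *Timp3* also blocks several ADAMTS proteases. In the brain such genes are read in glia, in cells of the vessels and in the meninges, and their products act on basement membranes and on the proteoglycan matrix around neurons.

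The cultures came from the brains of hGFAP-cre::*Rack7* +/+ mice (WT) and hGFAP-cre::*Rack7* fl/fl mice (cKO) at postnatal days P1, P6 and P8, of both sexes, with 2 libraries in each of the 6 groups. Every mouse carried the Cre transgene, which a human GFAP promoter drives in neural stem cells that give rise to neurons and glia, so the deletion is not limited to astrocytes. The meninges were stripped off, the cells were grown on Matrigel, itself a matrix extract, and shaking was used to rid them of microglia and oligodendrocytes. P1, P6 and P8 are ages at dissection, after which the cells were kept in culture until confluent. Whether the ages shared a culture batch is not stated, so age and batch cannot be told apart. The labels number the 2 libraries of a group as biological repeats, but whether they came from separate animals is not stated, so p-values measure only the spread between these libraries.

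Libraries held between 54413504 and 89183250 counts. *Rack7* is encoded by *Zmynd8*, whose summed count over the whole gene includes exons outside the floxed ones and so does not check the deletion. It was higher in the libraries labelled cKO at every time point, with log2 fold changes of 0.65 ± 0.05, 1.04 ± 0.05 and 0.70 ± 0.05 at P1, P6 and P8 (adjusted p = 3.16e-05, 4.97e-07 and 3.78e-06), so genotypes are given below as labels. The paper itself checked RACK7 protein in WT and cKO primary astrocytes by immunoblot. It also reports far fewer genomic sites bound by RACK7 in cKO astrocytes. All 9 astrocyte markers had counts in every group. Their summed level was 1404 to 2253 CPM, the count scaled to a fixed library total, in all groups but the P8 libraries labelled cKO, which had 687 and 702 CPM. The 10 fibroblast and meningeal markers in the table summed, under the label WT, to 360 to 376 CPM at P1 and to 24337 to 24541 CPM at P8.

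All 38 members passed the filter on low counts. The most abundant per length, in CPM per kilobase of exon (RPKM) averaged over the 12 libraries, were *Timp2* at 342, *Timp1* at 182 and *Timp3* at 179 RPKM. They were followed by *Mmp2*, a gelatinase, at 84.6 RPKM and by *Mmp14*, the membrane protease that activates the *Mmp2* precursor, at 56.6 RPKM. *Adamts1*, which cuts aggrecan and versican, was the highest of its family at 29.1 RPKM. The lowest were *Mmp24* at 0.224 and *Adamts20* at 0.284 RPKM. A call needed a fold change of at least 1.5 and, in the quasi-likelihood test of edgeR, a p below 0.05 after Benjamini-Hochberg adjustment. Fold changes are given on the log2 scale as cKO minus WT ± their standard error, from 2 libraries against 2.

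**Figure D1:**
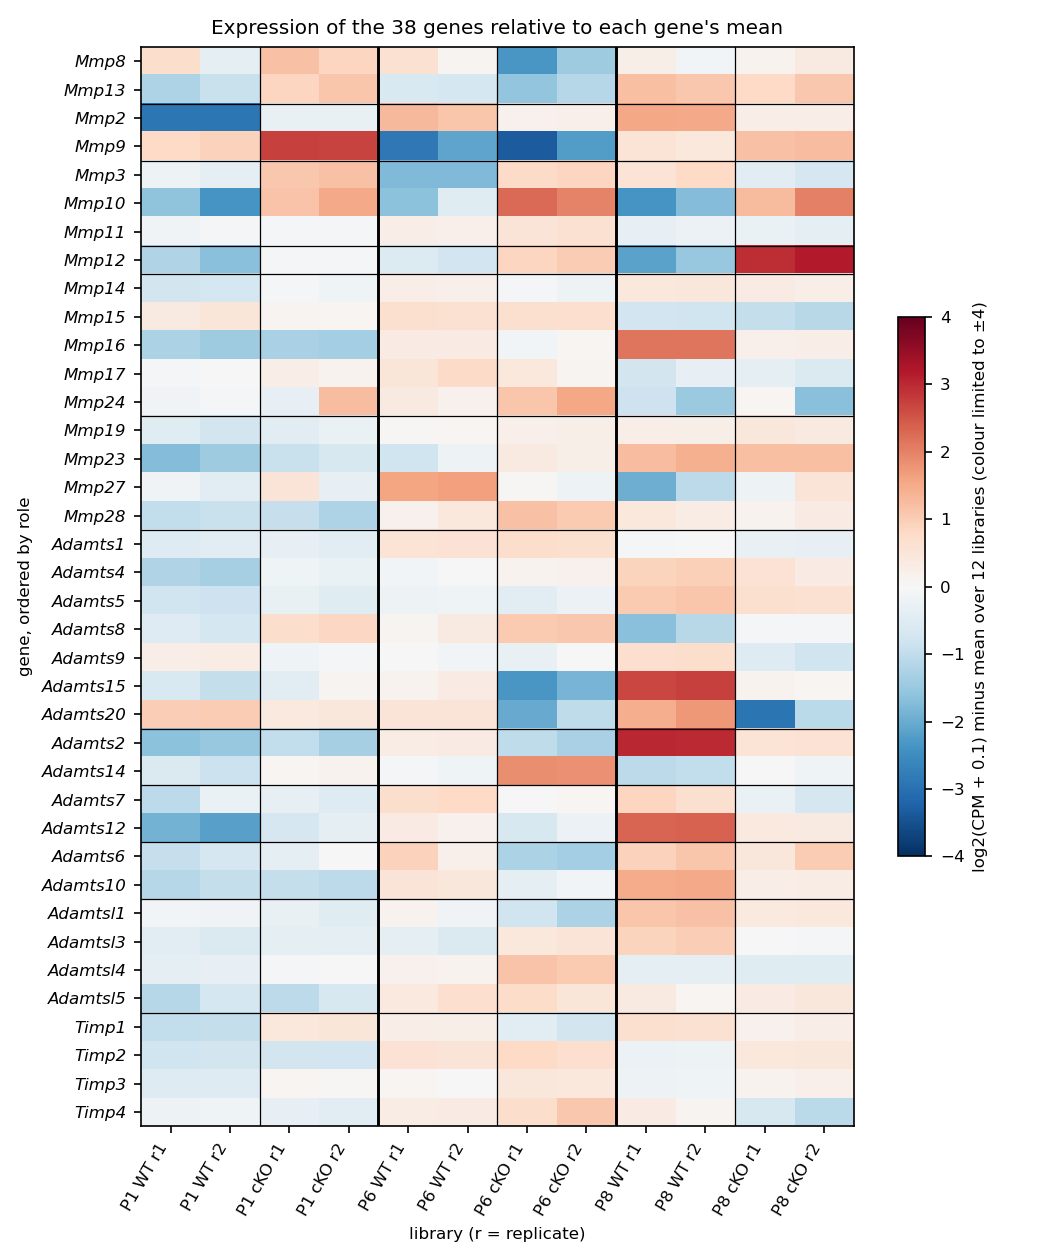
Each row is 1 of the 38 genes, ordered by role, and each column 1 of the 12 libraries. Colour gives log2(CPM + 0.1) minus the gene's mean over the libraries, limited to 4 either way. The 2 libraries of a group look alike in most rows, and several rows switch from blue to red between the P1 and P8 libraries labelled WT, *Adamts2* and *Adamts12* among them.

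At P1 every call went up. Of the 38 members 13 rose, 34.2% of them, against 4.01% of all genes tested, and 0 fell, against 0.892% of all genes (4.9% in either direction). The 13 were 8 MMPs, 4 ADAMTS genes and *Timp1*. DESeq2 also called 13 rises and 0 falls, and at an unadjusted p below 0.05, without the limit on fold change, 20 members were higher and 2 lower. The median log2 fold change was 0.45 over the members and 0 over all genes.

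At P6 the members went both ways. The label cKO had 9 rises, 23.7% of the members against 7.16% of all genes, and 12 falls, 31.6% against 6.38% (13.5% of all genes in either direction). Of the MMPs 5 rose and 4 fell, of the ADAMTS genes 2 rose and 6 fell, of the ADAMTS-like genes 2 rose and 1 fell, and *Timp1* fell. The median over the members was -0.00.

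At P8 falls prevailed. Of the members 13 fell, 34.2% against 8.37% of all genes. There were 6 rises, 15.8% of the members, which was near the 11.2% of all genes (19.6% in either direction). ADAMTS genes made up 7 of the falls and MMPs 3. The median log2 fold change was -0.22 over the members and 0.01 over all genes.

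Across the 3 time points 29 members were called at least once, 76.3% of them against 26.2% of all genes, and 9 at none, namely *Adamts1*, *Adamts5*, *Adamtsl5*, *Mmp11*, *Mmp15*, *Mmp17*, *Mmp19*, *Mmp24* and *Timp3*. *Adamts8*, *Adamts14*, *Mmp10* and *Mmp12* rose at all 3, as 1.1% of all genes did. *Adamts2*, *Adamts10*, *Adamts15*, *Adamts20* and *Adamtsl1* fell at both P6 and P8 without a call at P1, the course of 2.15% of all genes. Another 7 rose at one time point and fell at another, against 2.62% of all genes, among them *Mmp2* and *Adamts12*, which rose at P1 and fell at P6 and P8. *Mmp13* and *Timp1* rose at P1 and fell at P6, *Mmp3* rose at P1 and P6 and fell at P8, *Adamtsl3* rose at P6 and fell at P8, and *Mmp27* fell at P6 and rose at P8.

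**Figure D2:**
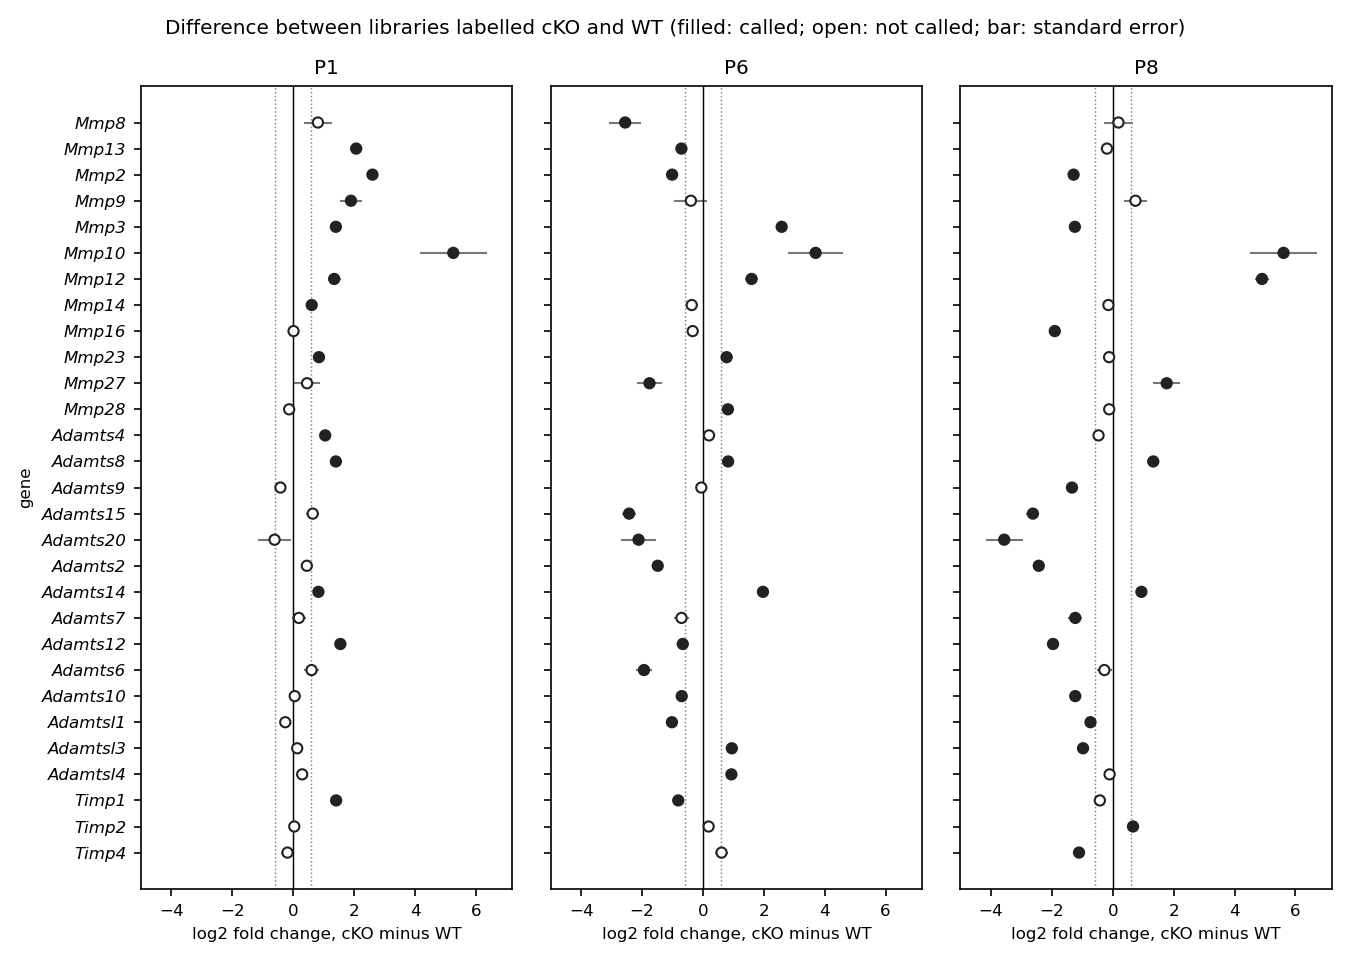
Points give the log2 fold change, cKO minus WT, of the 29 members called at 1 or more time points, with 1 panel for each of P1, P6 and P8, and bars the standard error. Filled points were called, open points were not, and dotted lines mark a fold change of 1.5. At P1 all filled points lie right of 0, while at P8 most lie left of it.

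Fibroblast and meningeal markers also differed between the labels. Their summed level was 360 to 376 CPM under the label WT and 2321 to 2360 CPM under the label cKO at P1, 6469 to 6512 against 2418 to 2597 CPM at P6, and 24337 to 24541 against 8066 to 8319 CPM at P8. Of the 10 markers 7 rose at P1, 7 fell at P6, and 7 fell and 1 rose at P8. *Dpt* had no count in the 3 groups labelled WT, and *Lum* had none in the P6 libraries labelled cKO. The sum was mostly collagen in the P8 libraries labelled WT. There *Col1a1*, *Col1a2* and *Col3a1*, themselves matrix genes, averaged 9721, 9237 and 4941 CPM. The 9 markers of microglia and macrophages were lower under the label cKO at P1, with a sum of 2775 to 2842 against 3401 to 3491 CPM, and higher at P8, with 4027 to 4188 against 2291 to 2303 CPM, where 5 of them rose and 1 fell. The 9 astrocyte markers summed to 687 to 702 CPM under the label cKO at P8 and to 1566 to 1949 CPM under the label WT, and 5 of them fell. Endothelial markers summed to 23.8 to 25.6 CPM under WT and 47.6 to 50.2 CPM under cKO at P1. They were at 120 to 124 against 58.5 to 62.5 CPM at P6 and 148 to 161 against 36.9 to 39.9 CPM at P8. Of the 7 endothelial markers 4 were in the table. Of these 2 rose at P1, 3 fell at P6, and 1 rose and 2 fell at P8. *Flt1* averaged higher under cKO, at 53.2 against 36.9 CPM at P6 and 19.4 against 5.14 CPM at P8. Neuron markers were higher under cKO at P6 (400 to 403 against 183 to 218 CPM) and P8 (264 to 276 against 120 to 140 CPM). The summed level of the mural markers was higher under cKO at each time point. Most of it was *Acta2*, which averaged 2044 CPM under WT and 2584 CPM under cKO at P6. Single mural markers went both ways. Of the 6 tested, 1 rose and 0 fell at P1, 2 rose and 3 fell at P6, and 2 rose and 1 fell at P8. The other lists differed at some time points. The part of other cell types in the members' differences was not tested, and in bulk libraries fewer cells of a type and less RNA per cell cannot be told apart.

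Of the MMPs, 6 lie side by side on chromosome 9 within 309 kb, in the order *Mmp13*, *Mmp12*, *Mmp3*, *Mmp10*, *Mmp8* and *Mmp27*, all on the plus strand. The bases before their start sites are shown because 4 of the 6 genes have a heptamer before at least 1 annotated start, TGAGTCA or its reverse complement TGACTCA, the letters that AP-1 factors bind. Each line gives the 100 bases upstream of a RefSeq start site (GRCm38.p6, chromosome 9, plus strand), with the heptamer in capitals, at chr9:7445722-7445821 for *Mmp3*, chr9:7502242-7502341 for *Mmp10*, chr9:7347274-7347373 for the second start of *Mmp12*, chr9:7272414-7272513 for *Mmp13*, chr9:7558329-7558428 for *Mmp8* and chr9:7571296-7571395 for *Mmp27*.
Mmp3: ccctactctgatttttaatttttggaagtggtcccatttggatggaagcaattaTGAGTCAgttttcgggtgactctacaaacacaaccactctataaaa
Mmp10: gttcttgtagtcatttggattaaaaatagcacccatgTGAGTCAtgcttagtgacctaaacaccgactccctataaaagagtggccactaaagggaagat
Mmp12: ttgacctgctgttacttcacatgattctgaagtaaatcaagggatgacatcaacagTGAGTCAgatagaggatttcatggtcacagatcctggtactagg
Mmp13: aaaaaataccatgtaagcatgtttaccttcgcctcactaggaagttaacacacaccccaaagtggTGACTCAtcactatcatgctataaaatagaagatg
Mmp8: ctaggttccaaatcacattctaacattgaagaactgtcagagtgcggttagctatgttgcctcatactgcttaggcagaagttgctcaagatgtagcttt
Mmp27: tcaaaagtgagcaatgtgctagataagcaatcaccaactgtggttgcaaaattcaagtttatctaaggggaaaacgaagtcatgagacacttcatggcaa

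*Mmp12* has a pair of starts in the RefSeq table. The first, 16 bases from the start of the gene in GENCODE, had no heptamer in its window, and only the second, 2993 bases inside the gene, had it. The heptamer began 46 bases before the start in *Mmp3*, 63 in *Mmp10*, 44 before the second start of *Mmp12* and 35 in *Mmp13*. It was sought on both strands in the 250 bases before each start, and was found in 4 of the 25 members with an entry in the RefSeq table used here, all of them in this cluster, and in 0 of the other 19. Of all 32851 windows of that length 4.46% held it. The 7 windows of the cluster held 0 to 4 CpG dinucleotides and the 20 windows of the other members 2 to 39, with a median of 17.5. Over all 32851 windows the median was 6. A match of letters is a description and not a site of binding, which was not analysed here.

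The 4 genes with the heptamer rose at P1 under the label cKO, and so did 5 of the 19 members outside the cluster whose windows lacked it, namely *Adamts12*, *Adamts14*, *Mmp14*, *Mmp23* and *Timp1*. Another 4 that rose, *Adamts4*, *Adamts8*, *Mmp2* and *Mmp9*, had no window in the table. Whether the heptamer had a part in any of these rises was not tested. *Mmp3*, stromelysin-1, which cuts proteoglycans and activates other MMP precursors, was at 20.5 and 18.4 CPM under the label WT and 49.6 and 53.3 CPM under the label cKO at P1 (log2 fold change 1.4 ± 0.11, adjusted p = 6.76e-05). At P6 it was at 6.90 and 6.96 CPM under the label WT and at 40.4 and 42.8 CPM under the label cKO (log2 fold change 2.59 ± 0.12, adjusted p = 5.29e-07), a 6.00-fold difference. At P8 the order was turned, with 34.4 and 41.6 CPM under WT and 17.2 and 15.0 CPM under cKO (log2 fold change -1.24 ± 0.11, adjusted p = 2.7e-05). The groups did not overlap at any time point, and between P6 and P8 the level rose under WT and fell under cKO.

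*Mmp12*, the metalloelastase of macrophages, was at 8.30 and 5.97 CPM under WT and 18.0 and 18.2 CPM under cKO at P1 (log2 fold change 1.35 ± 0.21, adjusted p = 0.00415). At P6 the values were 12.9 and 11.1 against 34.4 and 38.4 CPM (log2 fold change 1.60 ± 0.21, adjusted p = 0.000466). At P8 they were 4.20 and 6.57 against 149 and 174 CPM (log2 fold change 4.90 ± 0.24, adjusted p = 4.97e-07), a difference of 29.9-fold. The groups were apart each time. The markers of microglia and macrophages were lower under cKO at P1, where *Mmp12* was higher, and higher at P8, and their part in the result was not tested. *Mmp12* overlaps *Mmp1b* on the opposite strand, and since no source used here gives the strand setting of the counting, reads of the pair cannot be told apart.

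*Mmp13*, a collagenase, was at 2.78 and 3.53 CPM under WT and 12.2 and 14.4 CPM under cKO at P1 (log2 fold change 2.07 ± 0.19, adjusted p = 0.000181). By P6 it was at 4.26 and 4.04 against 2.13 and 2.96 CPM (log2 fold change -0.71 ± 0.19, adjusted p = 0.025). That fall was lost on leaving out the P6 WT replicate 1 (adjusted p = 0.096), the P6 WT replicate 2 (adjusted p = 0.0674) or the P6 cKO replicate 1 (adjusted p = 0.145), and with edgeR on the compared libraries alone (adjusted p = 0.106). At P8 the levels were 15.4 and 14.1 against 11.6 and 14.2 CPM, where the groups overlapped (adjusted p = 0.48).

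*Mmp10*, stromelysin-2, was near the limit of detection under the label WT, where the P1 libraries held 4 and 0 counts, the P6 libraries 4 and 18 and the P8 libraries 0 and 4. Under the label cKO the counts were 61 and 78 (P1), 156 and 125 (P6), and 82 and 165 (P8). Its level was therefore higher under cKO at all 3 time points, with log2 fold changes of 5.26 ± 1.11 at P1 (adjusted p = 0.018), 3.70 ± 0.91 at P6 (adjusted p = 0.0155) and 5.61 ± 1.11 at P8 (adjusted p = 0.00359). These sizes rest on few counts. Leaving out 1 WT library gave 9.36 (without replicate 1) and 4.13 (without replicate 2) at P1, 5.05 (without replicate 2) and 3.03 (without replicate 1) at P6, and 9.69 (without replicate 2) and 4.75 (without replicate 1) at P8, the largest being set against a library with no count. The call at P1 was lost without P1 WT replicate 2 (adjusted p = 0.0855) or P1 cKO replicate 2 (0.0593) and with edgeR on the compared libraries alone (0.062), and that at P6 without P6 WT replicate 1 (0.0864) or P6 cKO replicate 1 (0.0545).

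The other 2 genes of the cluster, *Mmp8* and *Mmp27*, were not called at P1, where both averaged higher under the label cKO. *Mmp8*, the collagenase of neutrophils, was at 1.83 and 1.27 CPM under WT and 0.152 and 0.373 CPM under cKO at P6 (log2 fold change -2.55 ± 0.52, adjusted p = 0.00584), and its levels were 1.94 and 0.885 against 2.77 and 2.18 CPM at P1 and 1.4 and 1.08 against 1.30 and 1.52 CPM at P8, where it was not called. *Mmp27* was at 1.49 and 1.23 against 2.43 and 1.30 CPM at P1, without a call. It was at 5.16 and 5.43 against 1.71 and 1.43 CPM at P6 (log2 fold change -1.75 ± 0.42, adjusted p = 0.0132) and at 0.353 and 0.762 against 1.43 and 2.41 CPM at P8 (log2 fold change 1.77 ± 0.44, adjusted p = 0.0118). Both genes were low in every library, and 1 library moved their values: without P6 cKO replicate 2 the value of *Mmp8* at P6 was -3.33, and without P8 WT replicate 2 that of *Mmp27* at P8 was 2.44. The fall of *Mmp27* at P6 was lost without P6 WT replicate 2 (adjusted p = 0.0516), P6 cKO replicate 1 (0.052) or P6 cKO replicate 2 (0.0791), and its rise at P8 without P8 WT replicate 1 (0.0756) or P8 cKO replicate 2 (0.0838).

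**Figure D3:**
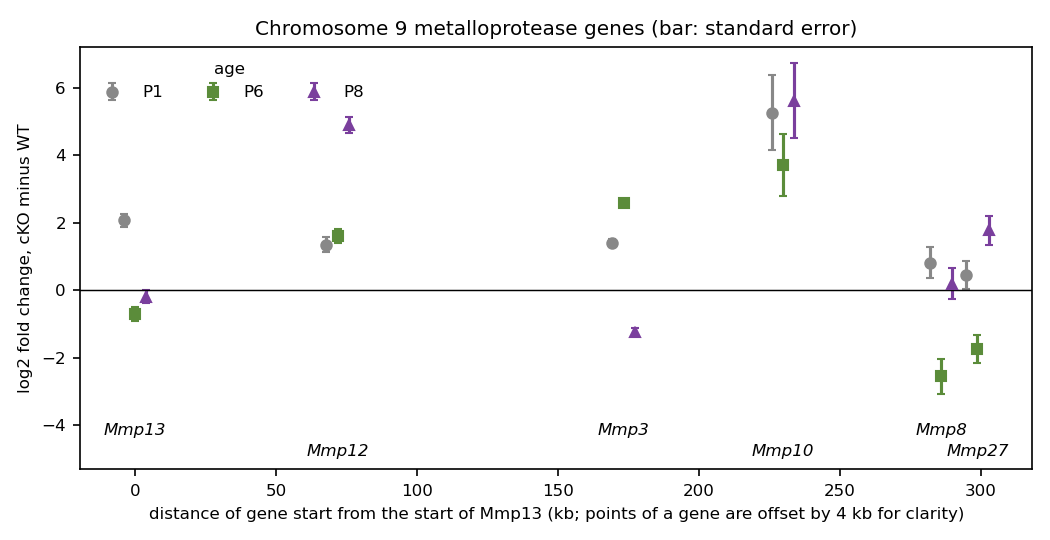
The horizontal axis gives the distance of each gene's start from that of *Mmp13* in kb, and the vertical axis the log2 fold change, cKO minus WT, with its standard error, at P1 (circles), P6 (squares) and P8 (triangles). *Mmp12* and *Mmp10* lie above 0 at all 3 time points, *Mmp3* crosses from above to below at P8, and *Mmp8* and *Mmp27* lie below 0 at P6.

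The gelatinase *Mmp2*, which cuts denatured and basement membrane collagen, had the smallest p of the family at P1. The level was 26.8 and 27.1 CPM under the label WT and 166 and 162 CPM under the label cKO, 6.08-fold higher (log2 fold change 2.60 ± 0.06, adjusted p = 2.33e-08). The P6 level was 495 and 431 CPM under WT and 226 and 233 CPM under cKO, 2.02-fold lower (log2 fold change -1.01 ± 0.06, adjusted p = 2.18e-06). At P8 the values were 593 and 581 against 241 and 241 CPM (log2 fold change -1.28 ± 0.06, adjusted p = 2.98e-07). The libraries labelled WT went from the lowest level of all to the highest, while those labelled cKO stayed between 162 and 241 CPM. The summed fibroblast and meningeal markers given above went the same way at each time point, and their part in it was not tested.

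*Mmp9*, the other gelatinase, was at 2.70 and 2.99 CPM under WT and 10.8 and 10.4 CPM under cKO at P1 (log2 fold change 1.90 ± 0.37, adjusted p = 0.0122). That call was lost without any 1 of the 4 P1 libraries, with adjusted p = 0.0858 without WT replicate 1, 0.0666 without WT replicate 2, 0.0593 without cKO replicate 1 and 0.0529 without cKO replicate 2, although the groups stood well apart. At P6 all 4 libraries were low, at 0.126 and 0.277 CPM under WT and 0.0609 and 0.249 CPM under cKO. At P8 it was at 2.27 and 2.06 against 3.59 and 3.69 CPM and was not called (adjusted p = 0.155), although it was by DESeq2 (adjusted p = 0.0426) and without P6 cKO replicate 1 (0.0453) or replicate 2 (0.0457).

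Among the membrane-type MMPs, *Mmp14* was the most abundant, at 194 and 198 CPM under WT and 308 and 291 CPM under cKO at P1 (log2 fold change 0.61 ± 0.06, adjusted p = 0.000232). It passed the limit on fold change by little, and without P1 cKO replicate 1 the log2 fold change was 0.57 and no longer a call. At P6 it was at 396 and 377 against 318 and 281 CPM and at P8 at 441 and 442 against 408 and 392 CPM, a difference under 1.5-fold both times. *Mmp16*, which also activates the *Mmp2* precursor, had like levels under both labels at P1, 15.3 and 14.0 CPM under WT and 15.0 and 14.4 CPM under cKO. At P6 it was at 46.3 and 46.9 against 34.2 and 39.6 CPM, and at P8 at 163 and 163 against 42.8 and 44.4 CPM (log2 fold change -1.90 ± 0.08, adjusted p = 1.95e-07). Between P6 and P8 its log2 change was 1.81 ± 0.08 under WT and 0.24 ± 0.08 under cKO, and the difference of these steps was -1.57 ± 0.11 (adjusted p = 1.41e-05). *Mmp15*, *Mmp17* and *Mmp24* were not called at any time point, with levels of 11.6 to 40.0 CPM, 7.43 to 21.6 CPM and 0.190 to 2.60 CPM over the 12 libraries.

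Of the remaining MMPs, *Mmp28*, or epilysin, was at 8.27 and 9.97 CPM under WT and 16.8 and 15.4 CPM under cKO at P6 (log2 fold change 0.82 ± 0.15, adjusted p = 0.00299). At P1 it was at 3.69 and 3.96 against 3.88 and 3.11 CPM and at P8 at 9.97 and 9.06 against 8.18 and 9.37 CPM, and the groups overlapped both times. *Mmp23* was at 2.36 and 2.96 against 4.39 and 5.23 CPM at P1 (log2 fold change 0.85 ± 0.21, adjusted p = 0.0327) and at 4.65 and 7.11 against 10.6 and 9.63 CPM at P6 (log2 fold change 0.78 ± 0.20, adjusted p = 0.0179). Its levels at P8 were 19.3 and 21.9 against 19.0 and 18.9 CPM. The calls of *Mmp23* were not firm. That at P1 was lost without any 1 of the 4 P1 libraries (adjusted p = 0.185 without WT replicate 1, 0.0628 without WT replicate 2, 0.0616 without cKO replicate 1 and 0.162 without cKO replicate 2) and without P8 cKO replicate 1 (0.0568) or replicate 2 (0.0566). That at P6 was lost without P6 WT replicate 1 (0.0871) or P6 cKO replicate 1 (0.0825). With edgeR on the compared libraries alone neither was called (adjusted p = 0.1 and 0.0728). *Mmp11* and *Mmp19* were not called at any time point and lay between 12 and 23.7 CPM and between 35.4 and 79.7 CPM.

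**Figure D4:**
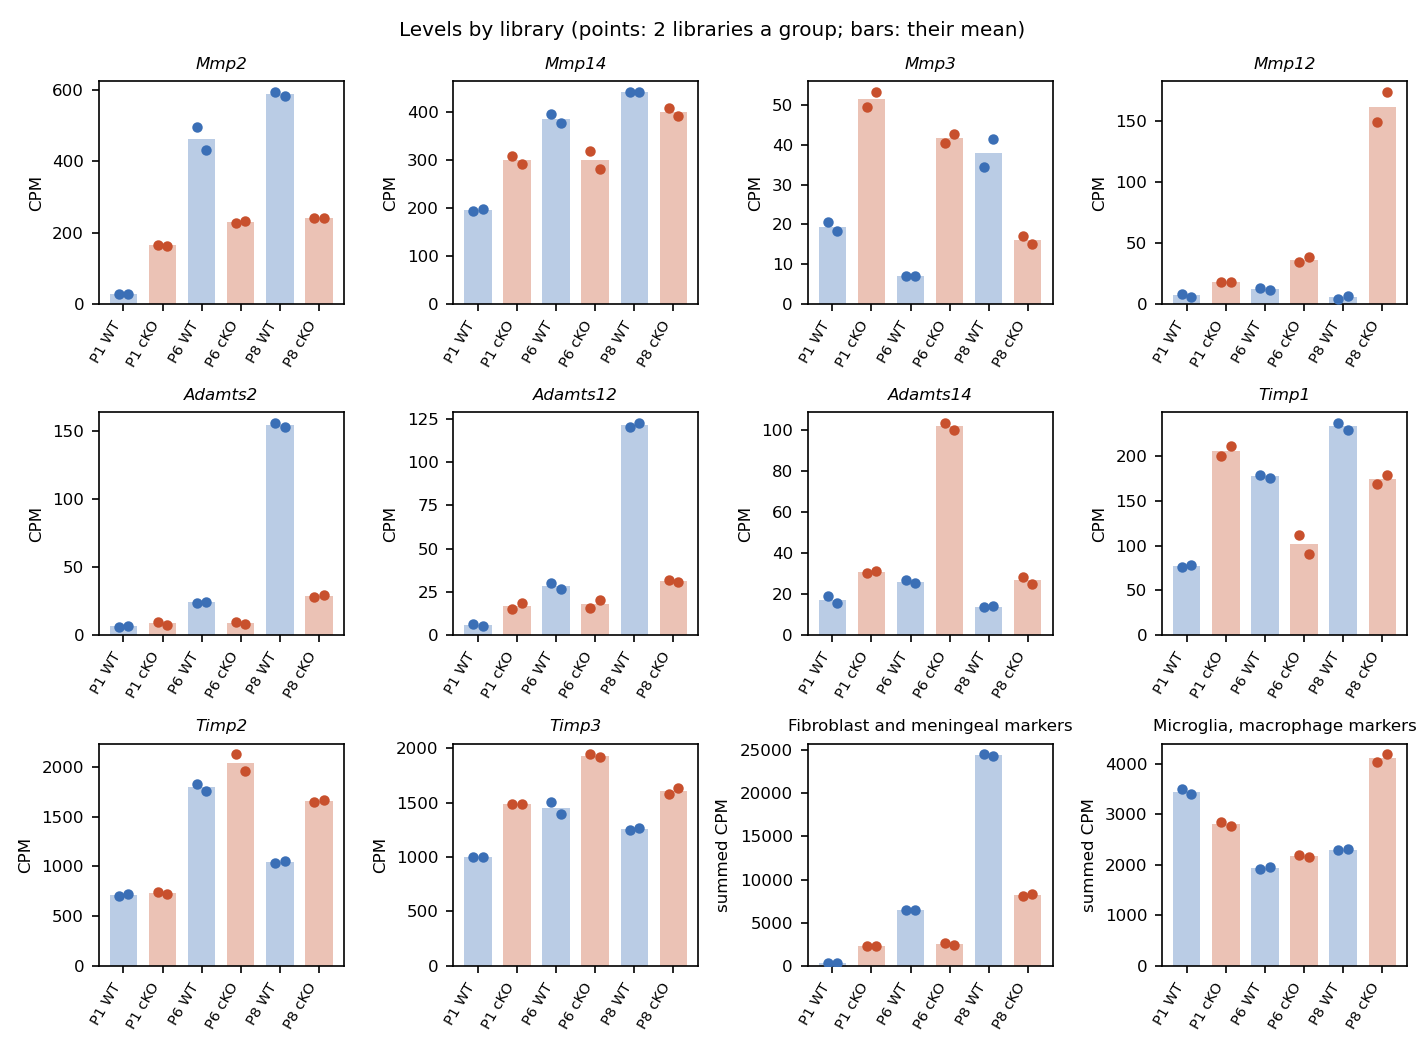
Points give the CPM of the 12 libraries for 10 members, and the summed CPM of 2 marker lists in the last 2 panels, with bars at the mean of the 2 libraries of a group. *Mmp2*, *Timp1* and the fibroblast and meningeal markers are higher under the label cKO at P1 and lower at P6 and P8, while *Mmp12* is highest in the P8 libraries labelled cKO.

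The procollagen N-proteinases *Adamts2* and *Adamts14*, which trim the amino end of fibrillar procollagens, were called in opposite directions at P6 and P8. *Adamts2* was at 6.12 and 6.61 CPM under WT and 9.76 and 7.64 CPM under cKO at P1, where it was not called (adjusted p = 0.0619) except without P1 cKO replicate 2 (adjusted p = 0.0229). At P6 it was at 23.9 and 24.3 against 9.5 and 7.70 CPM (log2 fold change -1.48 ± 0.13, adjusted p = 3.21e-05). At P8 it was at 156 and 153 against 28.3 and 29.1 CPM, 5.38-fold lower (log2 fold change -2.43 ± 0.13, adjusted p = 8.09e-07). The P8 libraries labelled WT stood far above all others.

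*Adamts14* was at 18.7 and 15.6 CPM under WT and 30.0 and 31.1 CPM under cKO at P1 (log2 fold change 0.83 ± 0.10, adjusted p = 0.00074). At P6 the values were 26.7 and 25.1 against 103 and 100.1 CPM, 3.92-fold higher (log2 fold change 1.97 ± 0.10, adjusted p = 1.02e-06), and at P8 13.6 and 14.1 against 28.1 and 25.0 CPM (log2 fold change 0.94 ± 0.10, adjusted p = 6.77e-05). The label cKO was higher throughout, and its P6 libraries were the highest of the 12.

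Of the ADAMTS genes that cut proteoglycans, *Adamts4* and *Adamts8* rose under the label cKO. *Adamts4*, an aggrecanase, was at 9.69 and 8.80 CPM under WT and 19.7 and 18.7 CPM under cKO at P1 (log2 fold change 1.05 ± 0.10, adjusted p = 0.000187), at 21.0 and 22.6 against 24.6 and 25.5 CPM at P6 and at 41.7 and 43.5 against 33.3 and 28.4 CPM at P8, with a call at P1 and, at P8, only without P8 cKO replicate 1 (log2 fold change -0.59). *Adamts8* was at 4.11 and 3.55 against 9.64 and 10.6 CPM at P1 (log2 fold change 1.4 ± 0.19, adjusted p = 0.00155), at 6.41 and 7.58 against 12.3 and 12.5 CPM at P6 (log2 fold change 0.83 ± 0.18, adjusted p = 0.00892) and at 1.78 and 2.67 against 5.73 and 5.53 CPM at P8 (log2 fold change 1.33 ± 0.19, adjusted p = 0.000517). Its groups did not overlap at any time point, but the call at P6 was lost without P6 WT replicate 1 (adjusted p = 0.0643).

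*Adamts9*, *Adamts15* and *Adamts20* fell. *Adamts15* was at 3.0 and 2.32 CPM under WT and 3.40 and 4.90 CPM under cKO at P1, with no call. Its P6 values were 5.02 and 5.84 against 0.838 and 1.18 CPM (log2 fold change -2.43 ± 0.23, adjusted p = 6.38e-05) and its P8 values 29.5 and 31.0 against 5.02 and 4.81 CPM (log2 fold change -2.62 ± 0.22, adjusted p = 1.47e-05). The P8 libraries labelled WT were again the highest.

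*Adamts9* was at 32.2 and 32.5 against 23.3 and 25.2 CPM at P1 and at 26.0 and 24.5 against 21.7 and 26.9 CPM at P6, without a call, and at 42.7 and 43.0 against 18.6 and 15.3 CPM at P8 (log2 fold change -1.34 ± 0.12, adjusted p = 2.95e-05). *Adamts20*, which is known from the white-belted coat of mice that lack it, was at 3.6 and 3.72 against 2.35 and 2.46 CPM at P1, at 2.57 and 2.58 against 0.366 and 0.825 CPM at P6 (log2 fold change -2.11 ± 0.58, adjusted p = 0.0262) and at 5.08 and 6.15 against 0.150 and 0.785 CPM at P8 (log2 fold change -3.56 ± 0.60, adjusted p = 0.00152). Its size depended on the libraries labelled cKO, with -2.81 at P6 without P6 cKO replicate 2, and -2.84 and -5.21 at P8 without P8 cKO replicate 1 and 2. The call at P6 was lost without P6 WT replicate 1 (adjusted p = 0.0733), P6 WT replicate 2 (0.0747) or P6 cKO replicate 1 (0.145). *Adamts1* and *Adamts5*, the most abundant of these proteases, were not called at any time point, with 138 and 144 CPM under WT and 119.6 and 117 CPM under cKO for *Adamts1* at P8 and 164 and 170.2 against 123 and 119 CPM for *Adamts5*.

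*Adamts7* and *Adamts12*, which cut cartilage oligomeric matrix protein, were lower under the label cKO at P8. *Adamts12* was at 6.32 and 5.21 CPM under WT and 15.0 and 18.7 CPM under cKO at P1 (log2 fold change 1.55 ± 0.16, adjusted p = 0.000329), at 30.1 and 26.7 against 15.4 and 20.5 CPM at P6 (log2 fold change -0.66 ± 0.15, adjusted p = 0.0117) and at 120.4 and 123 against 31.6 and 30.8 CPM at P8 (log2 fold change -1.96 ± 0.16, adjusted p = 1.22e-05). As with *Mmp2*, the label cKO was the higher at P1 and the lower afterwards, with no overlap of the groups. The call at P6 was lost without P6 WT replicate 1 (adjusted p = 0.0689) or P6 cKO replicate 1 (0.0713). *Adamts7* was at 4.96 and 8.54 against 8.19 and 7.23 CPM at P1, at 16.8 and 17.8 against 10.5 and 10.8 CPM at P6 (adjusted p = 0.0543, or 0.0111 without P1 WT replicate 1 and 0.0112 without P1 WT replicate 2) and at 18.8 and 16 against 8.48 and 6.35 CPM at P8 (log2 fold change -1.23 ± 0.24, adjusted p = 0.00306). It overlaps *Tbc1d2b* on the opposite strand.

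*Adamts6* and *Adamts10*, which act on the fibrillin microfibrils of elastic tissue, also fell. *Adamts10* was at 20.2 and 23.3 against 23.3 and 21.8 CPM at P1, at 63.4 and 61.0 against 35.2 and 41.6 CPM at P6 (log2 fold change -0.70 ± 0.09, adjusted p = 0.000578) and at 126 and 129 against 53.7 and 54.7 CPM at P8 (log2 fold change -1.23 ± 0.09, adjusted p = 9.53e-06). Its P6 value without P6 cKO replicate 1 was -0.58, just under a fold change of 1.5. *Adamts6* was at 25.0 and 15.1 CPM under WT and 5.42 and 5.04 CPM under cKO at P6 (log2 fold change -1.94 ± 0.27, adjusted p = 0.000638), and its levels of 6.97 and 8.27 against 10.2 and 13.0 CPM at P1 and of 25.2 and 28.8 against 18.1 and 26.6 CPM at P8 were not called.

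The ADAMTS-like genes have no protease of their own. *Adamtsl1* was at 69.4 and 68.5 CPM under WT and 61.4 and 53.9 CPM under cKO at P1, at 82.4 and 69.3 against 43.8 and 31.1 CPM at P6 (log2 fold change -1.02 ± 0.15, adjusted p = 0.000793) and at 164 and 169.6 against 99.8 and 102 CPM at P8 (log2 fold change -0.73 ± 0.14, adjusted p = 0.00363). *Adamtsl3* was at 60.5 and 55.5 against 63.5 and 63.7 CPM at P1, without a call. It was at 62.7 and 55.5 against 111 and 117 CPM at P6 (log2 fold change 0.95 ± 0.07, adjusted p = 1.75e-05) and at 152 and 165 against 81.2 and 80.1 CPM at P8 (log2 fold change -0.98 ± 0.07, adjusted p = 8.24e-06), so the label with the higher level changed between the 2 time points. *Adamtsl4*, which binds fibrillin microfibrils, was at 51.8 and 52.8 against 62.8 and 65.8 CPM at P1 and at 49.8 and 51.1 against 47.3 and 46.6 CPM at P8, without a call, and at 74.4 and 72.7 against 146 and 136 CPM at P6 (log2 fold change 0.93 ± 0.06, adjusted p = 2.84e-06). *Adamtsl5* was not called and lay between 3.30 and 12.2 CPM. *Adamtsl1* overlaps *Sh3gl2*, a gene of neurons, on the same strand.

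Among the inhibitors *Timp1*, which is induced in reactive astrocytes, was like *Mmp2* higher under the label cKO at P1 and lower at P6. It was at 76.5 and 78.4 CPM under WT and 201 and 212 CPM under cKO at P1 (log2 fold change 1.41 ± 0.09, adjusted p = 1.33e-05) and at 179 and 176 against 112 and 90.5 CPM at P6 (log2 fold change -0.81 ± 0.09, adjusted p = 0.000133). At P8 it was at 237 and 229.5 against 169 and 179 CPM, 1.34-fold lower and so short of a call (log2 fold change -0.42 ± 0.09, adjusted p = 0.0043). The groups did not overlap.

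*Timp2*, which blocks *Mmp2* and also helps *Mmp14* to activate it, was at 701 and 727 CPM under WT and 742 and 723 CPM under cKO at P1 (adjusted p = 0.7), where the groups overlapped. It was at 1833 and 1758 against 2130.2 and 1957 CPM at P6 (log2 fold change 0.19 ± 0.04, adjusted p = 0.0107), under 1.5-fold, and at 1037 and 1054 against 1650.4 and 1669 CPM at P8, 1.59-fold higher (log2 fold change 0.67 ± 0.04, adjusted p = 2.9e-06). *Timp3*, which stays bound to the matrix, was higher under the label cKO by less than 1.5-fold each time. Its values were 998 and 1003 against 1491 and 1489 CPM at P1 (log2 fold change 0.57 ± 0.04, adjusted p = 1.53e-05), 1507 and 1400.0 against 1946 and 1915 CPM at P6 (log2 fold change 0.41 ± 0.04, adjusted p = 4.14e-05) and 1248 and 1264 against 1579 and 1639 CPM at P8 (log2 fold change 0.36 ± 0.04, adjusted p = 6e-05). *Timp3* had no overlap between labels either.

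*Timp4* was low, at 3.17 and 3.27 CPM under WT and 2.91 and 2.76 CPM under cKO at P1 (adjusted p = 0.693) and at 4.51 and 4.64 against 6.03 and 7.97 CPM at P6 (log2 fold change 0.61 ± 0.20, adjusted p = 0.0529). At P8 it was at 4.69 and 4.02 against 2.35 and 1.70 CPM (log2 fold change -1.11 ± 0.21, adjusted p = 0.00261). The difference at P6 was called by DESeq2 (adjusted p = 0.0403) and without P6 cKO replicate 1 (adjusted p = 0.037), without P8 cKO replicate 1 (0.0426) and without P8 cKO replicate 2 (0.042). *Timp1*, *Timp3* and *Timp4* overlap the synapsin genes *Syn1*, *Syn3* and *Syn2* on the opposite strand. Over the libraries *Timp1* averaged 162 CPM beside 7.23 CPM of *Syn1*, and *Timp4* 4.0 CPM beside 22.7 CPM of *Syn2*, while *Syn3* was not analysed here. *Syn2* averaged 20.6 CPM under WT and 39.9 CPM under cKO at P6, where *Timp4* was also higher under cKO. At P8 *Syn2* was at 14.4 against 16.2 CPM. The part of *Syn2* reads in the counts of *Timp4* was not tested.

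Per length, the summed level of the 17 MMPs was higher at each later age under the label WT, at 83.3 and 85.1 RPKM at P1, 247 and 267 RPKM at P6 and 335 and 336 RPKM at P8. Under the label cKO it was 171 and 171 RPKM at P1, 199 and 201 RPKM at P6 and 223 and 224 RPKM at P8. The label cKO was thus above WT at P1 and below it at P6 and P8. *Mmp2* and *Mmp14* were the largest parts of this sum in every group but the P1 libraries labelled WT, where *Mmp14* was followed by *Mmp19*, *Mmp3* and then *Mmp2*.

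The 4 TIMPs summed to 389 and 399 RPKM under WT and 600 and 608 RPKM under cKO at P1, to 822 and 858 against 841 and 913 RPKM at P6, and to 685 and 687 against 808 and 832 RPKM at P8. The groups were apart at P1 and P8 and overlapped at P6. At P1 *Timp1* took 22.1% of the sum in both libraries under WT, and 37.6% and 39.3% under cKO. At P8 the order was turned, with 38.8% and 37.7% under WT and 23.5% and 24.3% under cKO, and the share of *Timp2* was 38.7% and 39.5% under WT and 52.4% and 51.5% under cKO.

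The 13 ADAMTS genes summed to 38.3 and 39.5 RPKM under WT and 48.6 and 49.8 RPKM under cKO at P1, to 78.3 and 78.9 against 88.3 and 88.4 RPKM at P6, and to 108 and 111 against 63.6 and 65.4 RPKM at P8. The ADAMTS-like genes summed to 26.1 and 26.3 against 28.7 and 29.1 RPKM at P1, to 32.4 and 34.3 against 52.0 and 55.1 RPKM at P6, and to 46.4 and 48.4 against 31.5 and 31.5 RPKM at P8. Both sums were the higher under cKO at P1 and P6 and the lower at P8. The higher ADAMTS sum at P6 rested on *Adamts14*, which averaged 4.99 RPKM under WT and 19.6 RPKM under cKO. Of the 13 ADAMTS genes 2 rose and 6 fell at P6.

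**Figure D5:**
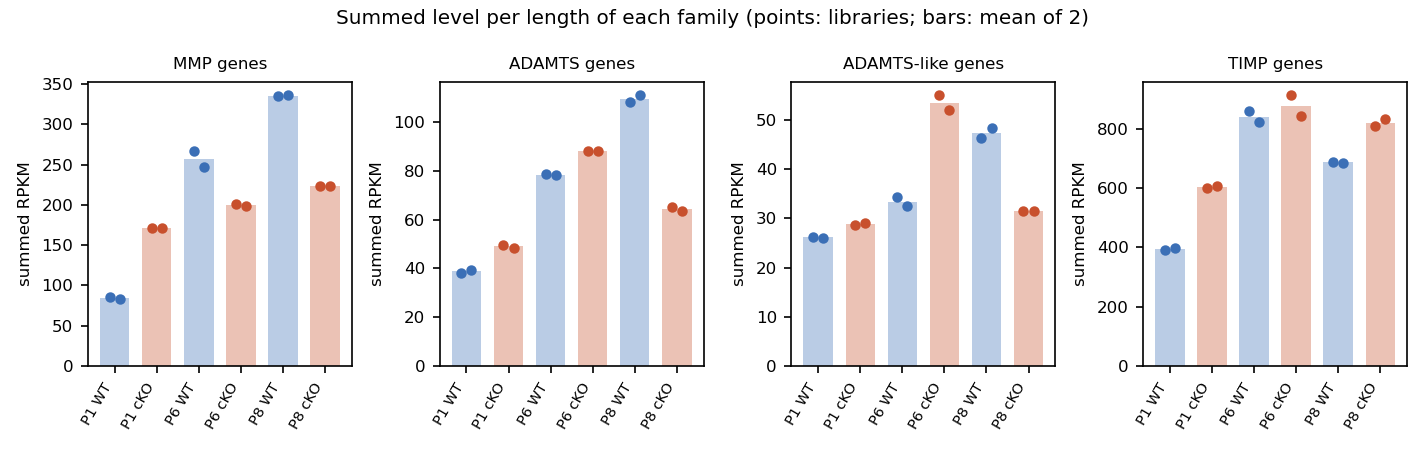
Each panel gives the summed RPKM of a family, with a point for each library and a bar at the mean of 2. The MMP sum climbs from P1 to P8 under the label WT and much less under the label cKO, and the ADAMTS and ADAMTS-like sums are above WT at P6 and below it at P8 under the label cKO.

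Whether the difference between labels itself changed with age at dissection was tested by interaction terms, called by adjusted p alone. Between P1 and P6 the log2 fold change of 15 members went down and that of 6 went up, against 8.19% and 7.12% of all genes (15.3% in either direction). Between P6 and P8 15 went down and 5 up, against 8.83% and 12.6% of all genes (21.5% in either direction), and between P1 and P8 21 went down and 2 up, against 11.7% and 14% of all genes (25.7% in either direction). The 3 terms share libraries and are not independent. From P1 to P8 the term was -3.89 ± 0.08 for *Mmp2* (adjusted p = 7.79e-09), -3.51 ± 0.22 for *Adamts12* (adjusted p = 4.29e-06) and -2.88 ± 0.18 for *Adamts2* (adjusted p = 3.68e-06). *Mmp12* at 3.55 ± 0.30 (adjusted p = 2.68e-05) and *Timp2* at 0.63 ± 0.06 (adjusted p = 5.99e-05) were the 2 that went up.

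Steps between ages at dissection were compared within each label. Between P1 and P6 23 members rose and 2 fell under the label WT, 60.5% and 5.26%, against 12.2% and 10.9% of all genes (23.1% in either direction). The rise of *Mmp2* was 4.10 ± 0.07 on the log2 scale, from 26.9 to 463 CPM on average, and that of *Adamts12* 2.30 ± 0.16. The 2 that fell were *Mmp3* and *Mmp9*. The fibroblast and meningeal markers went up in the same step, 8 of 10 of them called, and their part in it was not tested.

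Under the label cKO 13 members rose and 8 fell between P1 and P6, against 11% and 10.4% of all genes (21.4% in either direction). *Mmp9* was at -6.09 ± 0.48. *Mmp28* rose by 2.20 ± 0.16, and *Mmp2* was at 0.49 ± 0.06, under 1.5-fold. Of the fibroblast and meningeal markers 1 rose and 4 fell.

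Between P6 and P8 14 members rose and 8 fell under the label WT, against 8.66% and 10.3% of all genes (18.9% in either direction). *Mmp9* rose by 3.40 ± 0.45 from a very low level, *Adamts2* by 2.68 ± 0.13 and *Mmp3* by 2.45 ± 0.12, while *Mmp27* was at -3.23 ± 0.45 and *Timp2* at -0.78 ± 0.04. Under the label cKO 12 rose and 11 fell, against 11.9% and 12.2% of all genes (24% in either direction), with *Mmp9* at 4.54 ± 0.47, *Mmp13* at 2.35 ± 0.20 and *Mmp12* at 2.15 ± 0.21 among the rises and *Adamts14* at -1.94 ± 0.10 and *Timp4* at -1.79 ± 0.21 among the falls. *Mmp3* went opposite ways, with 2.45 ± 0.12 under WT and -1.37 ± 0.11 under cKO, and this difference was itself past the threshold (-3.83 ± 0.16, adjusted p = 6.96e-07). The steps share the P6 libraries and are not independent of each other.

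Genes that switch the proteases on or hold them back were taken from a list of 27, of which 26 were in the table. At P1 6 rose and 0 fell in edgeR, against 4.01% and 0.892% of all genes. At an unadjusted p below 0.05, without the limit on fold change, 12 were higher and 2 lower, and DESeq2 called 6 rises and 1 fall. *Spock3*, a proteoglycan that modulates MMPs, was at 0.379 ± 0.223 CPM under the label WT and 4.11 ± 0.313 CPM under the label cKO (log2 fold change 3.5 ± 0.48, adjusted p = 0.00184). *Adam19*, a membrane protease, was at 11.3 ± 0.399 CPM under the label WT and 37.5 ± 3.16 CPM under the label cKO (log2 fold change 1.73 ± 0.09, adjusted p = 3.84e-06).

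At P6 6 of the list rose and 6 fell, against 7.16% and 6.38% of all genes. *Papln*, an ADAMTS-like matrix protein, was at 1.31 ± 0.0828 CPM under the label WT and 9.27 ± 1.45 CPM under the label cKO (log2 fold change 2.82 ± 0.31, adjusted p = 0.000176). *Tgm2*, which cross-links matrix proteins, and *A2m*, which traps proteases, also rose (1.15 ± 0.05 and 0.89 ± 0.07). *Spock3* was at 25.8 ± 3.59 CPM under the label WT and 0.626 ± 0.412 CPM under the label cKO (log2 fold change -5.37 ± 0.46, adjusted p = 3.22e-05). The protein convertase *Pcsk5* and *Adam19* fell as well (-4.07 ± 0.13 and -2.39 ± 0.09).

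At P8 7 rose and 5 fell, against 11.2% and 8.37% of all genes. *Plau*, the urokinase that turns plasminogen into plasmin and so opens the way to MMP activation, was at 27.0 ± 0.711 CPM under the label WT and 223 ± 3.01 CPM under the label cKO (log2 fold change 3.05 ± 0.05, adjusted p = 1.94e-09). *Plg*, the gene of plasminogen, was low, at 2.32 ± 0.360 CPM under the label WT and 0.860 ± 0.213 CPM under the label cKO, without a call. Activation of MMPs was not measured. *Papln* rose from a low level (2.95 ± 0.36). *Spock3*, *Pcsk5* and *Adam12* fell by the most (-5.66 ± 0.44, -3.55 ± 0.13 and -1.91 ± 0.08). *Spock3* and *Adam19* thus had, as *Mmp2* did, higher values under the label cKO at P1 and lower ones at P6.

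Of 30 matrix substrates other than collagens and laminins, 29 were in the table. At P1 16 rose and 0 fell in edgeR under the label cKO, with a median log2 fold change of 0.93 against 0 over all genes. Of all genes 4.01% rose and 0.892% fell. At an unadjusted p below 0.05, without the limit on fold change, 19 were higher and 2 lower, and DESeq2 called 16 rises and 1 fall. The small proteoglycan *Lum* was at 0.758 ± 0.336 CPM under the label WT and 8.11 ± 1.07 CPM under the label cKO (log2 fold change 3.39 ± 0.25, adjusted p = 8.92e-05). *Dcn* was at 8.84 ± 0.401 CPM under the label WT and 89.7 ± 0.0463 CPM under the label cKO (log2 fold change 3.34 ± 0.16, adjusted p = 2.61e-06) and *Bgn* at 134 ± 4.93 CPM under the label WT and 650.1 ± 5.89 CPM under the label cKO (log2 fold change 2.27 ± 0.05, adjusted p = 1.21e-08). *Lum* is also 1 of the fibroblast and meningeal markers.

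At P6 5 of the substrates rose and 12 fell, against 7.16% and 6.38% of all genes, with a median of -0.41. *Tnc*, a matrix glycoprotein of developing and injured brain, was at 984 ± 67.5 CPM under the label WT and 3966 ± 0.528 CPM under the label cKO (log2 fold change 2.01 ± 0.04, adjusted p = 8.38e-09). *Thbs1* and *Ncan*, the brain proteoglycan neurocan, rose too (1.02 ± 0.04 and 0.96 ± 0.07). *Lum* had no count in the P6 libraries labelled cKO and 7.89 CPM under WT, so with a floor of 3 counts over the group it was at least 342-fold lower. The proteoglycan *Acan*, also called, had no count there either and 0.199 CPM under WT, so by the same floor it was at least 8.63-fold lower. *Dcn* and the fibrillin *Fbn2* fell (-6.09 ± 0.19 and -5.13 ± 0.10).

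At P8 3 rose and 14 fell, against 11.2% and 8.37% of all genes, with a median of -0.65. The share that rose was near that of all genes. *Tnc* was again higher under cKO, at 526 ± 17.1 CPM under the label WT and 2167 ± 18.8 CPM under the label cKO (log2 fold change 2.04 ± 0.04, adjusted p = 4.02e-09). *Hapln4*, a link protein, and *Fbln2* rose (1.43 ± 0.42 and 1.04 ± 0.07). The proteoglycan *Acan* was at 7.92 ± 2.17 CPM under the label WT and 0.0511 ± 0.00496 CPM under the label cKO (log2 fold change -7.23 ± 0.84, adjusted p = 0.000494). *Lum* and *Dcn* fell (-5.09 ± 0.24 and -5.0 ± 0.17). Of the fibroblast and meningeal markers 7 of 10 rose at P1 and 7 of 10 fell at P8, and their part in the counts of substrates was not tested.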

How the data were processed

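RNA-seq of cultured astrocytes was analysed in 12 libraries, 2 for each of 6 groups set by the labels. The values are whole-number counts of reads per gene that the authors deposited for 18903 genes, not normalized, from captured mRNA mapped with Hisat2 to GRCm38 (mm10). No source used here names the counting program, its annotation or its strand setting. The methods name ballgown and DESeq2 with limits on p and fold change.

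The software was edgeR 4.0.16 and DESeq2 1.42.0 in R 4.3.3. The 17938 genes that passed filterByExpr were scaled by TMM (factors 0.943 to 1.07) and fitted with 1 mean per group over all libraries (common biological coefficient of variation 0.178), and contrasts were tested with the quasi-likelihood test and Benjamini-Hochberg adjustment over all genes tested. CPM use the normalized library sizes, and RPKM divide them by merged exon length from GENCODE vM21. Standard errors are the log2 fold change over the root of F. Library totals of 54413504 to 89183250 leave little counting error for genes above 1 CPM, while replicates differed by more than counting noise (30.5 to 47.1 for chi-square over its degrees of freedom). An exact permutation of 2 libraries against 2 cannot give a two-sided p below 0.333, so no such test is given for single genes. A group with no count has a floor of 3 counts over the group.

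The members and lists were chosen with earlier results of these data known. Values of every library are given for the TIMPs and for members with a mean of at least 1 CPM that were called in a genotype contrast. Of the lists of partners, up to 3 of the largest rises and falls at each time point were named among called genes with a mean of at least 1 CPM. *Plg* was added beside *Plau*, and *Fbn2* beside the 3 largest falls of substrates at P6. Some genes that this rule or an overlap would name are not reported here. Upstream sequences came from the RefSeq table of GRCm38.p6 (25 members matched). Alternatives were DESeq2 size factors, no filter, DESeq2, the replicate number as a block, edgeR on the compared libraries alone, each library left out in turn, a fold change of at least 2 and an unadjusted p. Where 1 library remained in a group, its spread was taken to be that of the other groups. Checks of the fit used simulated data.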

Additional observations from a re-analysis of the deposited data

Results flagged for a closer look

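The difference between the labels cKO and WT changed with age at dissection by an interaction term (adjusted p below 0.05, edgeR) in 31 of the 38 members, 81.6% of them against 34.7% of all genes tested. For each the largest such term is given here as the log2 fold change at the later age minus that at the earlier age. None of these differences was explained or traced to a cause.

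From P1 to P8 the term was -3.89 for *Mmp2*, -3.51 for *Adamts12*, -3.26 for *Adamts15*, -2.95 for *Adamts20*, -2.88 for *Adamts2*, -1.92 for *Mmp16*, -1.52 for *Adamts4*, -1.42 for *Adamts7*, -1.28 for *Adamts10*, -0.97 for *Mmp23*, -0.89 for *Adamts5* and -0.22 for *Timp3*. In the opposite direction it was 3.55 for *Mmp12* and 0.63 for *Timp2*. *Mmp2*, *Adamts12*, *Adamts2* and *Adamts15* thus had lower fold changes at P8 than at P1 by over 2 log2 units. The term of *Adamts20* was lost without P1 WT replicate 1 (adjusted p = 0.0677), P1 WT replicate 2 (0.0653), P1 cKO replicate 2 (0.0548) or P8 WT replicate 2 (0.0659). That of *Timp3* was lost without P8 cKO replicate 1 (0.0561). That of *Mmp23* was lost without P1 WT replicate 1 (0.107), P1 cKO replicate 2 (0.104), P8 WT replicate 1 (0.0512), P8 WT replicate 2 (0.0994), P8 cKO replicate 1 (0.0858) or P8 cKO replicate 2 (0.0866).

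From P1 to P6 the term was -3.37 for *Mmp8*, -2.78 for *Mmp13*, -2.54 for *Adamts6*, -2.29 for *Mmp9*, -2.22 for *Timp1*, -0.98 for *Mmp14* and -0.76 for *Adamtsl1*, and it was 1.14 for *Adamts14*, 0.95 for *Mmp28* and 0.37 for *Mmp15*. Several of these were near the threshold. The term of *Mmp15* was lost in 15 of 17 alternatives and those of *Mmp9* and *Adamtsl1* in 12 and 9, each with adjusted p of up to 0.163, 0.241 and 0.111. That of *Mmp28* was lost without P1 WT replicate 2 (0.0532), P1 cKO replicate 2 (0.0525) or P6 WT replicate 1 (0.0512).

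From P6 to P8 the term was -3.83 for *Mmp3*, -1.92 for *Adamtsl3*, -1.72 for *Timp4*, -1.29 for *Adamts9*, -1.04 for *Adamtsl4* and -0.36 for *Adamts1*, and 3.53 for *Mmp27*. For *Mmp3* and *Adamtsl3* the label with the higher level changed between these ages.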

How the results depend on the processing

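Of 208 calls of members over the 10 contrasts, 173 were kept in all 17 alternatives and 35 were lost in at least 1, and 0 were reversed. Of the 53 calls between labels 40 were kept and 13 lost, each named above with its library and, where edgeR on the compared libraries alone lost it, with that value, and of 61 values not called 5 were called in some alternative and 14 changed sign in one. DESeq2 size factors in place of TMM gave the same numbers of calls in the 3 comparisons of labels. With a fold change of at least 2 the members called at P6 went from 21 to 12, and those called between P6 and P8 under the label cKO from 23 to 15.

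With 1 library left out, the members called numbered 10 to 13 at P1, 15 to 22 at P6 and 18 to 20 at P8. Replicate numbers did not pair the samples (correlations of their deviations of -0.04 to 0.04), and with the number as a block 13, 21 and 19 members were called at P1, P6 and P8, as without it. *Mmp10*, with a mean of 0.855 CPM, had fold changes that depended on single libraries, and so did *Adamts20*, *Mmp8* and *Mmp27*, which averaged above 1 CPM. Calls of *Mmp9* and *Mmp23*, with means of 3.27 and 10.5 CPM, were also lost without single libraries.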
